A study of Mus musculus with 12 samples.

Results

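Annexins are proteins that bind phospholipid membranes when calcium rises, and they link membranes to one another and to the cytoskeleton during secretion, endocytosis and repair of the plasma membrane. Annexin A1 is also released from cells and acts through formyl peptide receptors to damp inflammation, and annexin A2 forms a complex with the S100 protein encoded by S100a10 that binds plasminogen and its activator at the cell surface. In microglia, the resident macrophages of the brain, these genes are followed mainly as part of inflammatory activation and of the clearing of dying cells.

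The genes described are 10 of the 54532 in the count table: the annexin genes Anxa1, Anxa2, Anxa3, Anxa4, Anxa5, Anxa6, Anxa7, Anxa8 and Anxa11, and S100a10. They were picked by symbol, with no threshold on a value, but at a time when earlier results of these counts were known, and which comparison drew attention to them is not recorded. Each adjusted p given here is therefore the one its row received in the fit of the whole table, and none is independent support for a statement on the family. The 3 other annexin genes of the table were left out of the selection. Anxa9 had 23 to 71 counts per library and was tested, with adjusted p-values of 0.43 to 0.933 over the 4 comparisons. Anxa13 had 0 to 3 counts, and Anxa10 had 0 in all 12 libraries.

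All 12 libraries were made from the immortalised mouse microglial line N9, in 4 groups of 3. The first group grew for 18 h in high-fructose medium (labelled 15 mM fructose, with the 3 mM glucose of the control medium) and then received lipopolysaccharide (LPS) at 1 µg/ml for 6 h. The second had high-glucose medium (labelled 15 mM glucose, with 5 mM fructose) and the same LPS, and the third had control medium (3 mM glucose and 5 mM fructose) with LPS. The last had control medium without LPS and is called unstimulated here. All media were glucose-free DMEM with dialyzed serum, to which the sugars were added. The labels do not say whether 15 mM is the final or the added amount, list no raised sugar without LPS and no osmotic control, and leave unsaid whether the 3 libraries of a group are separate cultures. The p-values therefore reflect library-to-library spread alone, and that spread could be technical.

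Totals per library ran from 15453776 to 17956772 counts, and all 10 genes passed the filter that left 12766 genes for testing. Markers of microglia and macrophages, summed over 12 genes, stood at 1962 to 2229 CPM (counts scaled to library size with TMM factors). Csf1r had 6088 to 8027 counts, while the homeostatic markers P2ry12 and C1qa had 1 to 6 and 0 to 11. Of the same list, Aif1 had only 2 to 9 counts, Cx3cr1 15 to 68 and Itgam 133 to 272. Fibroblast markers, whose cell type is rich in annexins, summed to 8.33, 14.3 and 0.789 CPM in the high-fructose libraries, to 0.917, 0.737 and 6.12 CPM with high glucose, to 5.28, 0.776 and 0.776 CPM in control medium with LPS, and to 7.97, 0.391 and 6.17 CPM unstimulated. All 3 lymphocyte markers had at most 3 counts in every library. Epithelial markers summed to 0 to 1.67 CPM with high fructose and 0 to 4.91 with high glucose. They summed to 0.0597 to 1.13 in control medium with LPS and 0 to 0.838 unstimulated. In the same order, astrocyte markers summed to 21.4 to 24.8, 18.8 to 20.5, 21.1 to 24.7 and 27.6 to 29.5 CPM. Oligodendrocyte markers stood at 32.4 to 37.0, 28.8 to 31.7, 27.4 to 28.9 and 33.0 to 39.1 CPM, and endothelial ones at 0.744 to 1.05, 0.917 to 1.98, 0.776 to 1.13 and 0.168 to 0.459. Neuron markers summed to 43.1 to 51.4 CPM with high fructose, against 28.0 to 32.7 with high glucose, 27.2 to 31.7 in control medium with LPS and 25.9 to 27.5 unstimulated; only Tubb3 and Map2 of that list were tested. Tubb3 had 28.2 to 32.1 CPM with high fructose, 13 to 15.8 with high glucose, 10.7 to 13.8 in control medium with LPS and 3.32 to 4.53 unstimulated. Map2 had 14.2 to 19.3, 13.1 to 17.3, 15.6 to 17.9 and 21.4 to 23.0 CPM in the same groups, and Rbfox3 had 0 to 6 counts anywhere. Bulk RNA cannot tell fewer cells of a type from less RNA per cell.

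The members differed widely in level. FPKM, the count scaled by gene length and library size, is the scale for levels between genes. With high fructose the means were 444 ± 36.6 for S100a10, 379 ± 23.1 for Anxa5, 336 ± 16.2 for Anxa2 and 302 ± 11 for Anxa1 (FPKM, SD, n = 3). Anxa7 (42.3 ± 2.27), Anxa6 (36.7 ± 2.87), Anxa4 (24.1 ± 1.59), Anxa3 (17.7 ± 0.802) and Anxa11 (14.8 ± 0.907) lay well below, and Anxa8 (3.21 ± 0.437) was last. In control medium with LPS, Anxa5 (337 to 368 FPKM) and S100a10 (331 to 347 FPKM) overlapped. The split between the upper 4 genes and the rest held in every group, but the order inside the upper 4 rested on the length used. Per length of the principal coding transcript, an alternative chosen after the data were seen, Anxa2 led with high fructose at 866 ± 41.7, then S100a10 at 785 ± 64.7, Anxa1 at 469.8 ± 17.1 and Anxa5 at 389 ± 23.8, since the counted length of Anxa2 is 3731 bases and its principal transcript 1447.

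**Figure D1:**
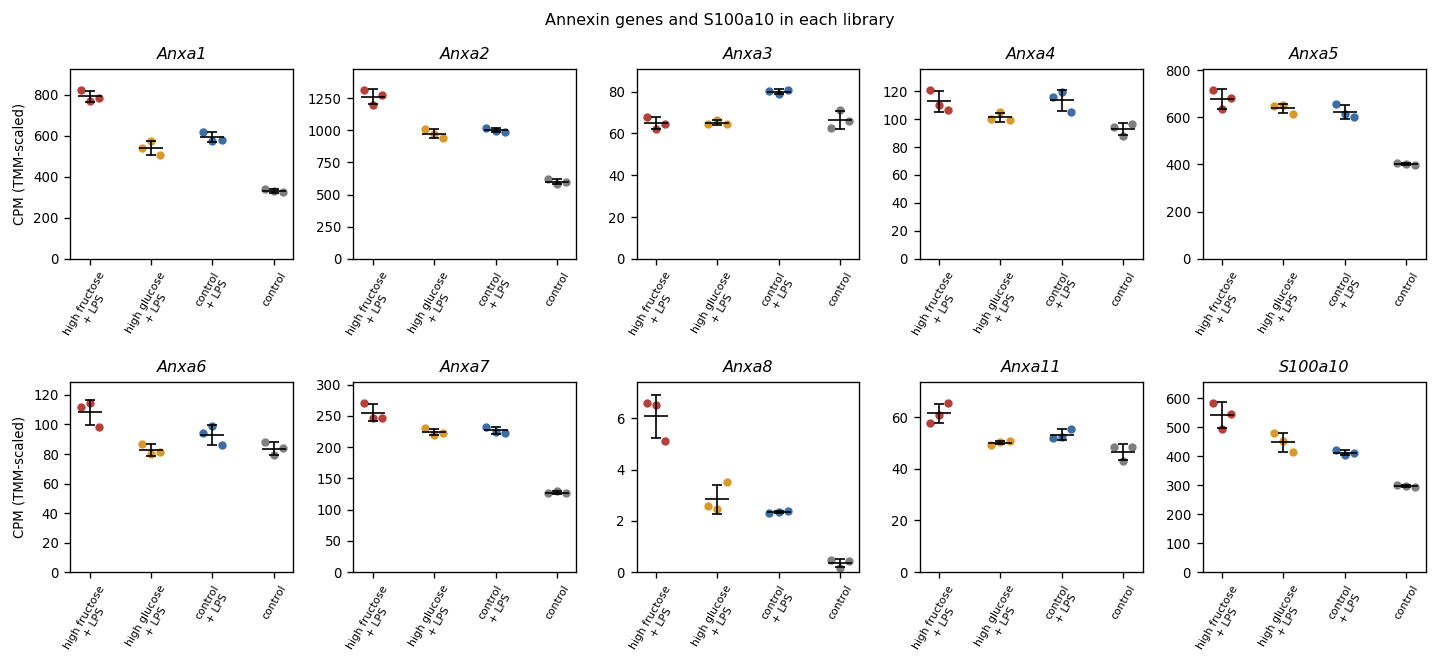
Level of each of the 10 genes in the 12 libraries, in CPM after TMM scaling with each vertical axis starting at 0; points are libraries, the bar is the mean and the whiskers 1 SD (n = 3). The 3 unstimulated libraries lie lowest for every gene except Anxa3 and Anxa6, and the 3 high-fructose libraries lie highest for Anxa1, Anxa2, Anxa7, Anxa8, Anxa11 and S100a10.

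The first comparison asked how LPS changed these genes in control medium. Most of the 10 genes were higher: 9 were called higher and none lower at an adjusted p below 0.05. Of all genes tested, 28.8% were called and 15.2% were called higher. Anxa9, outside the selection, leaned downward and was not called (−0.37, adjusted p = 0.43). The median change of the 10 was 0.55 (log2), beside −0.004 over all genes tested. Their 3 libraries with LPS lay above the 3 without for the same 9 genes, a separation upward seen in 22.6% of all genes, and none lay below, as 21.8% of all genes did. Since this comparison may have entered the choice of the genes, nothing is read from these shares.

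Anxa1 (chromosome 19, 20373428 to 20390944, GRCm38) encodes annexin A1, the mediator that glucocorticoids raise and that slows leukocyte recruitment. It had 620.5, 576 and 579.8 CPM with LPS, against 342, 329.5 and 324 CPM unstimulated. The groups were far apart, and the change was 0.83 ± 0.05 (log2, SE; adjusted p = 4.65e-10). Anxa2 (chromosome 9, 69453620 to 69491795), whose product carries plasminogen at the cell surface and moves endosomes, had 1021, 997 and 990.2 CPM with LPS, against 621, 584 and 597 CPM unstimulated. Its change was 0.74 ± 0.04 (adjusted p = 2.71e-10). S100a10 (chromosome 3, 93555080 to 93564643), the partner that ties a pair of annexin A2 molecules together, had 422, 403 and 411 CPM with LPS, against 302, 296 and 293 CPM unstimulated, a smaller rise of 0.47 ± 0.06 (adjusted p = 6.24e-06).

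Anxa7 (chromosome 14, 20455260 to 20480133), which encodes a membrane-fusing annexin with a long N-terminal tail, rose as much as Anxa1, with 233, 225 and 223 CPM with LPS, against 126, 130.0 and 126 CPM unstimulated (0.83 ± 0.05, adjusted p = 2.26e-10). Anxa5 (chromosome 3, 36448923 to 36475894), the annexin whose binding to phosphatidylserine is used to stain dying cells, had 657, 612 and 603 CPM with LPS, against 405, 402 and 399 CPM unstimulated. That rise was 0.63 ± 0.05 (adjusted p = 1.2e-08). None of these groups overlapped.

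Anxa8 (chromosome 14, 34085981 to 34100571), a sparse relative known from late endosomes, showed the largest change of the 10. It had 37, 39 and 40 counts with LPS, against 8, 3 and 8 counts unstimulated, or 2.34 ± 0.047 and 0.351 ± 0.159 CPM (SD, n = 3). The fitted change was 2.71 ± 0.33 with a 95% interval of 2.02 to 3.40 (adjusted p = 4.27e-06), and with so few counts the size is known less well than for the abundant members.

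The other members moved little. Anxa4 (chromosome 6, 86736840 to 86793584), studied mainly in secretory epithelia, had 116, 119 and 105 CPM with LPS, against 94.1, 87.8 and 96.2 CPM unstimulated, and rose by 0.29 ± 0.06 (adjusted p = 0.00126). Anxa3 (chromosome 5, 96793339 to 96845966), known from the granules of human neutrophils, had 80.3, 78.8 and 80.8 CPM with LPS, against 62.4, 71.1 and 65.8 CPM unstimulated, and rose by 0.27 ± 0.06 (adjusted p = 0.00132). Both groups stood apart for each gene.

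Anxa11 (chromosome 14, 25842156 to 25886804), which tethers RNA granules to lysosomes and is mutated in some human amyotrophic lateral sclerosis, had 51.8, 52.5 and 55.6 CPM with LPS, against 48.4, 43.1 and 48.4 CPM unstimulated. Its rise of 0.19 ± 0.06 (adjusted p = 0.0331) was lost without unstimulated library 2 (adjusted p = 0.174) or without LPS library 2 or 3 (0.0626 and 0.127), and with upper-quartile factors (0.115), library totals (0.254) or no filter (0.0653). Of the principal transcript of Anxa11, 32.7% matches other genes at 98% identity or more, with Gm2260 as the top match. Gm2260 had 10, 6 and 11 counts with LPS, against 6, 8 and 14 counts unstimulated. Anxa11 had 835, 880 and 931 counts with LPS, against 845, 772 and 911 counts unstimulated. How reads that fit both genes were counted was not tested. Anxa6 (chromosome 11, 54979108 to 55033445), whose protein has a duplicated annexin core and acts in cholesterol transport, had 94.2, 99.2 and 85.9 CPM with LPS, against 87.9, 79.0 and 83.7 CPM unstimulated. The groups overlapped, and the difference of 0.16 ± 0.07 did not pass (adjusted p = 0.096). It passed with the 2 groups alone (0.0444), with a replicate block (0.0442) and without LPS library 3 (0.0399).

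The unequal size of these changes showed in ratios taken within a library, which do not depend on library scaling. S100a10 stood at 1.27, 1.24 and 1.28 times the FPKM of Anxa2 with LPS, against 1.49, 1.56 and 1.51 times unstimulated, so it was lower in every library with LPS. Its level relative to Anxa2 was below 1 with LPS (0.868) and above 1 unstimulated (1.04) when the principal transcript lengths were used. The ratio of Anxa3 to Anxa2 was 0.0805, 0.0810 and 0.0836 with LPS, against 0.103, 0.125 and 0.113 unstimulated.

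Genes that work with the annexins moved in both directions under LPS. Over the partner lists, 15 of 48 tested genes were called higher and 12 lower, where 15.2% and 13.6% of all genes tested were. These lists were chosen with earlier results known, so nothing is read from the shares. Among the plasminogen genes, 2 of 5 tested were higher and 1 lower (median 0.05). Higher were the urokinase receptor gene Plaur (1.51 ± 0.05, adjusted p = 6.5e-14) and the activator gene Plat (1.07 ± 0.35, adjusted p = 0.0289), while the urokinase gene Plau was lower (−0.25 ± 0.04). Plat was near the floor, with 1.63 ± 0.0904 CPM with LPS, against 0.772 ± 0.137 CPM unstimulated. Plg, for plasminogen itself, had 0 to 35 counts and was not tested. Of 10 tested membrane repair partners, 4 were higher and 1 lower (median 0.11). Ahnak, whose large scaffold protein binds the complex of annexin A2 and S100A10, had 624 ± 128 CPM with LPS, against 351 ± 66.3 CPM unstimulated (0.83 ± 0.16, adjusted p = 0.000757). Myof, for the ferlin myoferlin, rose by 0.83 ± 0.09, the calpain gene Capn2 by 0.79 ± 0.06 and the ESCRT gene Chmp4b by 0.42 ± 0.05, and Vps4a fell by 0.21.

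The receptors of annexin A1 were hardly detected: Fpr1 had 0 to 9 counts per library, Fpr2 0 to 7 and Fpr3 0. Of 7 tested genes on the receptor and lipid mediator list, 1 was higher and 3 lower (median −0.18). The cytosolic phospholipase gene Pla2g4a, whose enzyme annexin A1 can inhibit, fell to 82.2 ± 6.19 CPM with LPS, against 139 ± 4.42 CPM unstimulated (−0.76 ± 0.07, adjusted p = 5.03e-08). Ptgs1 (−0.56) and, close to the threshold, Lta4h (−0.18, adjusted p = 0.0485) were lower, and the inducible prostaglandin synthase gene Ptgs2 was higher by 1.21 ± 0.06. Of 6 tested S100 relatives, 2 were higher (median 0.31): S100a8, which encodes a subunit of calprotectin, by 1.40 ± 0.22, and S100a11, whose product binds annexin A1, by 0.36 ± 0.08. S100a8 was sparse, with 10.4 ± 0.521 CPM with LPS, against 3.94 ± 0.493 CPM unstimulated. S100a9, on the same list, had 0 to 4 counts and was not tested.

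Genes of phosphatidylserine exposure and recognition, the lipid signal that annexin A5 binds, numbered 12 tested, of which 2 rose and 4 fell (median −0.18). The scramblase gene Ano6 (0.38) and the receptor gene Stab1 (0.43) were higher. The receptor gene Mertk (−1.31 ± 0.11), its bridging ligands Pros1 (−0.41) and Gas6 (−0.62) and the flippase gene Atp8a1 (−0.42) were lower. Gas6 was sparse, with 2.65 ± 0.528 CPM with LPS, against 4.07 ± 0.566 CPM unstimulated (adjusted p = 0.044). The last list held genes that glucocorticoids induce in many cells, as they do Anxa1, and the gene of their receptor, Nr3c1 (0.19, adjusted p = 0.0503). Of its 8 tested genes, 4 were higher and 3 lower (median 0.38), with Sgk1 (1.27), Dusp1 (1.80) and Cebpd (1.12) higher and Fkbp5 (−0.59) lower among the 4 with the smallest adjusted p.

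The next comparison asked what high fructose changed in cells that all had LPS. Anxa1, Anxa2, Anxa8 and S100a10 were higher still and Anxa3 was lower. These were 5 of the 10 members, where 4.91% of all genes tested were called, and 2.37% were called higher and 2.55% lower. The 3 high-fructose libraries lay above all 3 control ones for 6 members (10.4% of all genes) and below them for 1 (10%). The median change of the 10 was 0.21, beside −0.001 over all genes tested. As before, nothing is read from these shares.

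Short stretches upstream of the start of transcription are shown for Anxa1, Anxa2 and Anxa8, which moved together here, with matches to searched motifs in capitals (RefSeq, GRCm38.p6, 5′ to 3′ on the strand of the gene). For Anxa1 (chr19:20390686-20390715, minus strand) the stretch is 30 bases around a TATA box match, for Anxa2 (chr9:69453433-69453619, plus strand) the capitals mark a GC box and an AP-1 site, and for Anxa8 (chr14:34085729-34085978, plus strand) no searched motif was found.
Anxa1: cagttcatatccTATAAAatcaggagtcca
Anxa2: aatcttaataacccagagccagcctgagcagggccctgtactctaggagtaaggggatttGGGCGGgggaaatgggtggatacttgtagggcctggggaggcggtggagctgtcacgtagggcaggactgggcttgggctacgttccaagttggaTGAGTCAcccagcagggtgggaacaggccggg
Anxa8: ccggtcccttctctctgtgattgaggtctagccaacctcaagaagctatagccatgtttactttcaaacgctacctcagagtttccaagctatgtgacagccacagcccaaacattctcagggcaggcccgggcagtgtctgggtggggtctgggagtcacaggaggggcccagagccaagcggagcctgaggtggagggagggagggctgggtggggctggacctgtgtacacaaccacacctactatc

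The search covered the 250 bases before the start on both strands, for 6 motifs, in the windows of 7 members that the promoter table holds and of all 32851 windows. TATAAA, known as the core TATA box, was found in Anxa1 and Anxa2 and in 12.4% of all windows. TGANTCA (AP-1 site) was found in Anxa2 alone among these members and in 6.75% of all windows. GGGCGG (GC box) was found in Anxa2, Anxa7 and Anxa11 and in 32.7% of all windows, and CACGTG (E-box) in a window of Anxa7 and in 6.02%. A form of the NF-kB site (GGGA and TTCC with 2 free bases between) was found in Anxa4 and in 1.21% of all windows, and the interferon-stimulated response element (GAAA repeated after 2 free bases) in no member and in 2.98%. The TATAAA of Anxa2 overlaps no other motif match and lies in bases that GENCODE counts as exon, as does the whole window of Anxa1. A match is a description of these letters only.

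Anxa1 had 824, 769.8 and 782 CPM with high fructose, against 620.5, 576 and 579.8 CPM in control medium with LPS. Every high-fructose library lay above every control one, and the change was 0.42 ± 0.05, a 1.34-fold higher level (95% interval 1.24 to 1.44; adjusted p = 3.98e-05). Anxa2 had 1314, 1197 and 1274 CPM with high fructose, against 1021, 997 and 990.2 CPM in control medium with LPS, again without overlap. Its change was 0.33 ± 0.04, or 1.26-fold (adjusted p = 8.46e-05).

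S100a10 had 583, 495 and 546 CPM with high fructose, against 422, 403 and 411 CPM in control medium with LPS. The high-fructose libraries differed more among themselves than the control ones but did not reach them, and the change was 0.39 ± 0.06 (adjusted p = 0.00038). Anxa8 had 107, 105 and 78 counts with high fructose, against 37, 39 and 40 counts in control medium with LPS, or 6.08 ± 0.825 and 2.34 ± 0.047 CPM. That was a change of 1.38 ± 0.23, 2.60-fold with a 95% interval of 1.84 to 3.66 (adjusted p = 0.00123). Anxa3 was the exception in direction, with 68.0, 62.3 and 64.4 CPM with high fructose, against 80.3, 78.8 and 80.8 CPM in control medium with LPS (−0.30 ± 0.06, adjusted p = 0.00292). Its mean of 64.9 ± 2.89 CPM with high fructose lay near the 66.4 ± 4.42 CPM of unstimulated cells, and those groups overlapped.

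These 5 calls held whichever of the 6 libraries was left out. Ribosomal RNA took 0.423, 0.313 and 0.365% of counts with high fructose, against 0.585, 0.535 and 0.457% in control medium with LPS, and the part of this, of Tubb3 and of the fibroblast markers in the result was not tested.

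The remaining 5 members did not pass. Anxa7 had 271, 247 and 247 CPM with high fructose, against 233, 225 and 223 CPM in control medium with LPS, a separated but small difference of 0.17 ± 0.05 that just missed the threshold (adjusted p = 0.0501). It passed with DESeq2 (0.024), with upper-quartile factors (0.0443), with the replicate block and without high-fructose library 2 (0.047). Anxa11 had 57.9, 61.0 and 65.5 CPM with high fructose, against 51.8, 52.5 and 55.6 CPM in control medium with LPS (0.21 ± 0.06, adjusted p = 0.0846). That difference passed with the replicate block. Gm2260, which shares sequence with Anxa11, had 18, 20 and 169 counts in the same high-fructose libraries, against 10, 6 and 11 counts in control medium with LPS. In both groups the library highest for one was highest for the other, and a part of shared reads in the difference was not tested.

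Anxa6 had 112, 114 and 98.6 CPM with high fructose, against 94.2, 99.2 and 85.9 CPM in control medium with LPS (0.22 ± 0.07, adjusted p = 0.0805). It passed with no filter (0.0294), with the replicate block and without high-fructose library 3 (0.0288). Anxa5 had 716, 635 and 682 CPM with high fructose, against 657, 612 and 603 CPM in control medium with LPS, groups that overlapped (0.12, 95% interval 0.02 to 0.22, adjusted p = 0.228). Anxa4 had 121, 110.3 and 107 CPM with high fructose, against 116, 119 and 105 CPM in control medium with LPS, and its interval of −0.14 to 0.12 spans no change.

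**Figure D2:**
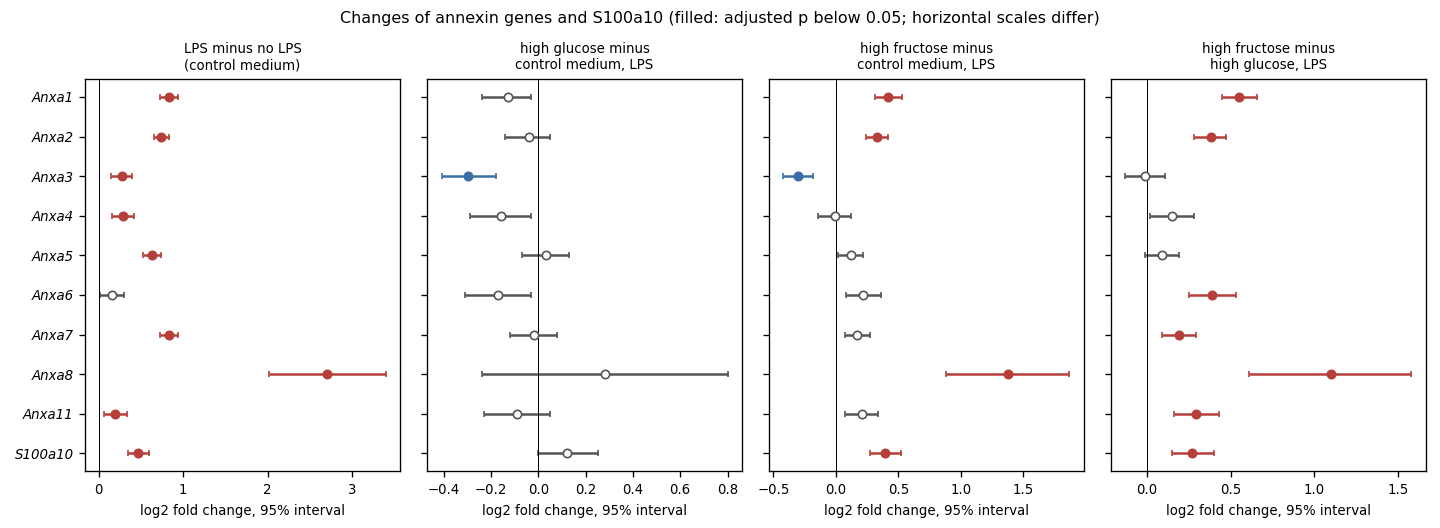
Log2 fold change of each member in the 4 comparisons, with 95% intervals from the edgeR fit of the whole table; filled points have an adjusted p below 0.05, red higher and blue lower, and the horizontal scales differ between panels. Under high fructose Anxa1, Anxa2, Anxa8 and S100a10 lie right of 0 at 0.42, 0.33, 1.38 and 0.39 and Anxa3 lies left at −0.30, while under high glucose Anxa3 alone is filled.

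Within a library, Anxa1 gained on the other abundant annexins with high fructose. Its FPKM was 0.784, 0.826 and 0.781 times that of Anxa5 with high fructose, against 0.643, 0.641 and 0.655 times in control medium with LPS, with no overlap. Relative to Anxa2 it was 0.897, 0.920 and 0.878, against 0.869, 0.826 and 0.838, a smaller gap. The ratio of S100a10 to Anxa2 was 1.36, 1.27 and 1.32 with high fructose, against 1.27, 1.24 and 1.28 in control medium with LPS, and these ratios overlapped. Anxa3 fell behind, at 0.0530, 0.0533 and 0.0517 times Anxa2, against 0.0805, 0.0810 and 0.0836 times.

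**Figure D3:**
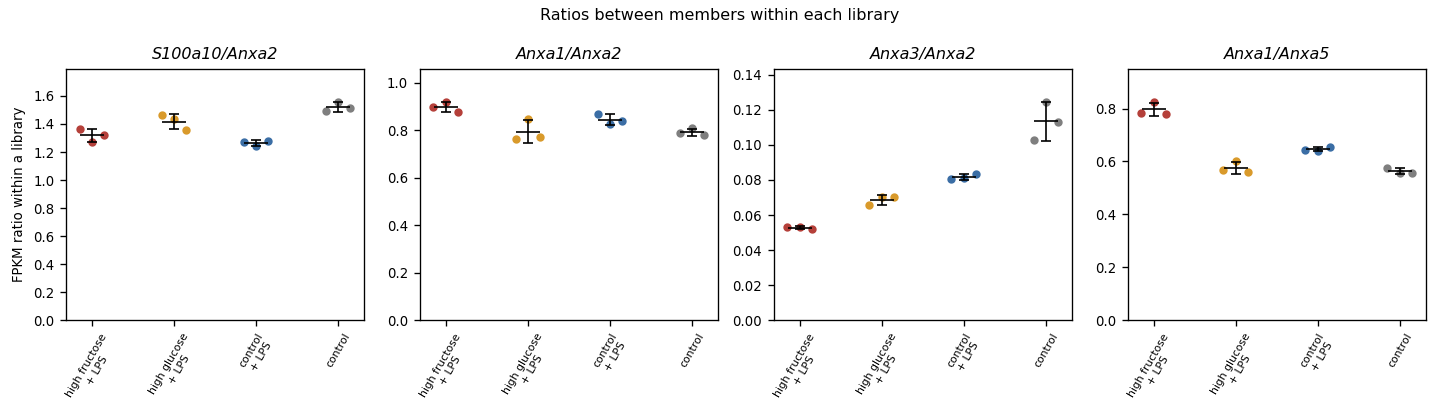
FPKM ratio between 2 members within each library, with each axis starting at 0; points are libraries, bars the mean and whiskers 1 SD (n = 3). The ratio of Anxa1 to Anxa5 lies at 0.781 to 0.826 with high fructose and at 0.554 to 0.655 in the other groups, and that of Anxa3 to Anxa2 is lowest with high fructose at 0.0517 to 0.0533.

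Of the 48 tested genes of the partner lists, 6 were called with high fructose, all of them higher, where 4.91% of all genes tested were called. Those lists too were chosen with earlier results known, so nothing is read from the share. Capn2, for the catalytic subunit of a calcium-activated protease that acts in membrane repair and can cleave annexins, had 173 ± 3.55 CPM with high fructose, against 107 ± 5.65 CPM in control medium with LPS (0.69 ± 0.06, adjusted p = 6.52e-07). It was the 1 called of 10 tested repair partners (median 0.05). Plaur was higher by 0.27 ± 0.05 (adjusted p = 0.00124), the 1 called of 5 tested plasminogen genes (median 0.08). S100a6, another calcium sensor that binds annexins, was higher by 0.45 ± 0.10 among 6 tested S100 relatives (median 0.18), with 307 ± 49.4 CPM against 225 ± 5.15 CPM.

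Ptgs1 was higher by 0.65 ± 0.08 (adjusted p = 5.8e-05), the 1 called of 7 receptor and lipid mediator genes (median −0.03). Ano6 was higher by 0.23 ± 0.05 as the 1 called of 12 phosphatidylserine genes (median 0.02), and Dusp1 by 0.43 ± 0.08 as the 1 called of 8 genes on the glucocorticoid list (median 0.09). No partner gene was called lower in this comparison.

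High glucose was tested against the same control libraries with LPS, so the effects of both sugars share them. Here 1 member was called, Anxa3, and it was lower, where 1.56% of all genes tested were called and 0.971% were called lower and 0.587% higher. The high-glucose libraries lay wholly above the control ones for 1 member (9.4% of all genes) and wholly below for 4 (9.76%). The median change of the 10 was −0.07, beside 0.003 over all genes tested. Anxa3 had 64.6, 66.5 and 64.5 CPM with high glucose, against 80.3, 78.8 and 80.8 CPM in control medium with LPS (−0.30 ± 0.06, adjusted p = 0.013). The groups stood well apart, but the call was lost without any of the 3 control libraries with LPS (adjusted p = 0.0632, 0.0502 and 0.0657) or without high-glucose library 3 (0.0693), while the change stayed between −0.31 and −0.29.

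For some members the intervals for high glucose were narrow, though they reflect only the spread between these libraries. Anxa2 had 1009, 970.2 and 938 CPM with high glucose, against 1021, 997 and 990.2 CPM in control medium with LPS, and the change of −0.04 had a 95% interval of −0.14 to 0.05. Anxa5 (0.03, −0.07 to 0.13) and Anxa7 (−0.02, −0.12 to 0.08) had intervals about as narrow. Anxa1 had 539, 575 and 505 CPM with high glucose, all below the 620.5, 576 and 579.8 CPM of control medium with LPS, but the difference of −0.13 ± 0.05 did not pass (adjusted p = 0.236). S100a10, with 479, 452 and 414 CPM with high glucose, against 422, 403 and 411 CPM in control medium with LPS, leaned upward without passing (0.12 ± 0.06, adjusted p = 0.376).

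Anxa8 had 42, 40 and 55 counts with high glucose, against 37, 39 and 40 counts in control medium with LPS, and its interval of −0.24 to 0.80 leaves room for a sizeable change. Anxa4 (−0.16), Anxa6 (−0.17) and Anxa11 (−0.09) had adjusted p-values of 0.227, 0.26 and 0.604. Among the partner genes, Dusp1 (0.36 ± 0.08, adjusted p = 0.0243) was called higher, and none was called in the S100, receptor, plasminogen, repair or phosphatidylserine lists.

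The last comparison set high fructose directly against high glucose, both with LPS. Higher with high fructose were 7 members and lower none, where 3.72% of all genes tested were called, 1.84% higher and 1.88% lower. The groups stood apart upward for 8 members (9.29% of all genes) and downward for none (8.64%), and the median change of the 10 was 0.28 beside −0.002 over all genes tested. Anxa1 differed most clearly, with 824, 769.8 and 782 CPM with high fructose, against 539, 575 and 505 CPM with high glucose (0.55 ± 0.05, 1.47-fold, adjusted p = 4.12e-06). Anxa2 differed by 0.38 ± 0.04 (adjusted p = 4.35e-05) and Anxa8 by 1.10 ± 0.23 (adjusted p = 0.0101), and no library of one group reached the other.

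Anxa6 was called here, unlike in the other comparisons, with 112, 114 and 98.6 CPM with high fructose, against 87.0, 79.9 and 81.2 CPM with high glucose (0.39 ± 0.07, adjusted p = 0.00249). It had leaned upward with high fructose and downward with high glucose relative to the shared control libraries. Anxa11 differed by 0.29 ± 0.06 (adjusted p = 0.0134, and 0.0734 without high-fructose library 3), beside 18, 20 and 169 counts of Gm2260 with high fructose and 19, 10 and 84 with high glucose. S100a10 differed by 0.27 ± 0.06 (adjusted p = 0.0126), a call lost without high-glucose library 3 (0.0826) or high-fructose library 1 (0.0757), and with the 2 groups alone (0.077). Anxa7 differed by 0.19 ± 0.05 (adjusted p = 0.0355), lost without high-glucose library 2 or 3 (0.133 and 0.119) or high-fructose library 1 (0.175), and with the 2 groups alone (0.159).

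Anxa3 had 68.0, 62.3 and 64.4 CPM with high fructose and 64.6, 66.5 and 64.5 CPM with high glucose, overlapping levels whose difference of −0.01 had a 95% interval of −0.13 to 0.11. Anxa5 (0.09) and Anxa4 (0.15) did not pass. Of the partner genes, Capn2 (0.66 ± 0.06, adjusted p = 2.51e-06), Ptgs1 (0.41), Ano6 (0.26) and Plaur (0.25) were higher with high fructose.

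Profiles over the 12 libraries, each centred on its own mean, were compared by the root mean square difference in log2 CPM among 11304 other protein-coding genes. The gene nearest to Anxa1 was Anxa2 (0.0860), followed by Ampd3 (0.110) and Capn2 (0.117). Nearest to Anxa2 were Srxn1 (0.0636), Tmbim1 (0.0747) and Havcr2 (0.0773), and Havcr2 (0.0777) was also nearest to S100a10, before Vim (0.0879) and Agpat4 (0.0887). Anxa5 lay closest to Cd14 (0.0437), Anxa7 to Lrrc8d (0.0452) and Anxa8 to Gprc5a (0.312). Among the members themselves, Anxa2 and Anxa7 (0.0847) and Anxa1 and Anxa2 (0.0860) were the closest pairs.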

How the data were processed

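RNA was extracted with a column kit and libraries were made at a sequencing company, per the labels' protocols. One deposited table holds unnormalized counts for each gene, and the submitters' processing notes name featureCounts 1.5.0-p3 and mm10. The other deposited table holds FPKM, and its values equal the count divided by the listed gene length and by 1 constant per library. Aligner, annotation release and strand setting, not given in the sources used here, could shift counts of overlapping genes. The main test was the quasi-likelihood test of edgeR 4.0.16 (R 4.3.3): filterByExpr kept 12766 genes, libraries were scaled by TMM, and 1 quasi-likelihood fit held all 12 libraries with 1 coefficient per group and no covariate. Each comparison had its own Benjamini-Hochberg adjustment over those genes, with calls below 0.05. CPM are these counts scaled with TMM factors.

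The members, the partner lists and the naming rule were chosen with earlier results of these data known. All members were named. One gene of a partner list is not reported here and was left out of that list's counts and median. Of each partner list, called genes were named where there were 6 or fewer, and otherwise the 4 with the smallest adjusted p; genes nearest in profile were sought for members whose group means differ by at least 0.5 log2. Alternatives were RLE, upper-quartile or no factors, no filter, DESeq2 1.42.0, limma 3.58.1 on log2 FPKM with 0.1 or 1 added, the 2 groups alone, a replicate block, and leaving out each library. Shared sequence was searched with BLAST 2.17.0+ on GENCODE M21 (GRCm38) at 98% identity over at least 75 bases, and gene coordinates of the count table equalled that release for all 10 members. Exons on the other strand overlap 2.63% of the exonic bases of Anxa2, 1.61% of those of Anxa4 and 2.73% of those of Anxa11. Exons on the same strand, of Gm42603, overlap 3.07% of those of Anxa3. The overlapping genes had at most 5 counts. Of the principal transcript of Anxa4, 3.84% matches other genes, with Gm44036 as the top match. No 2 libraries of a group agreed within sampling noise, with a lowest chi-square per degree of freedom of 3.47.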

Additional observations from a re-analysis of the deposited data

Results flagged for a closer look

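The effect of the raised sugar differed between fructose and glucose for 7 members, by the direct test of high fructose against high glucose under LPS (edgeR, adjusted p below 0.05, log2 scale), where 3.72% of all genes tested were called and 1.84% were called higher. The difference was 0.55 for Anxa1, 0.38 for Anxa2, 1.10 for Anxa8, 0.39 for Anxa6, 0.29 for Anxa11, 0.27 for S100a10 and 0.19 for Anxa7. In each case all 3 high-fructose libraries lay above all 3 high-glucose libraries, a separation upward that 9.29% of all genes tested showed. Some of these calls were lost in other fits: S100a10 with the 2 groups alone (adjusted p = 0.077) or without high-fructose library 1 (0.0757) or high-glucose library 3 (0.0826), Anxa7 with the 2 groups alone (0.159) or without high-fructose library 1 (0.175) or high-glucose library 2 or 3 (0.133 and 0.119), and Anxa11 without high-fructose library 3 (0.0734). The sharing of sequence between Anxa11 and Gm2260 applies here too.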

How the results depend on the processing

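Over 10 other settings, the members called were 8 to 10 for LPS (9 as reported), 5 to 8 for high fructose (5), 5 to 7 for fructose against glucose (7) and 1 throughout for high glucose (1). Leaving out 1 library gave 8 to 9, 5 to 6, 5 to 7 and 0 to 1. All genes called also moved over the 10 settings, to 3262 to 4363 for LPS (3677 as reported) and 529 to 847 for high fructose (627). Between the sugars they were 247 to 735 (475). Leaving out 1 library gave 2992 to 3175, 426 to 535 and 332 to 385 for these 3 comparisons. Nothing is read from the counts of members. Only near-zero changes turned direction, all when 1 library was left out: Anxa7 with high glucose (−0.04 to 0.00), Anxa4 with high fructose (−0.07 to 0.03) and Anxa3 between the sugars (−0.05 to 0.02). No label says what a replicate number shares. Deviations of same-numbered libraries correlated at −0.194 to 0.119, 17 of 36 best matches had the same number where chance gives 12, and library 1 had the lowest mitochondrial share in each group, so a link between same-numbered libraries is neither established nor excluded. With the replicate block the members called with high fructose were 8, adding Anxa6, Anxa7 and Anxa11. All genes called for high glucose moved from 199 to 427 without a filter, 391 with the block, 329 with DESeq2, 118, 126 and 116 with limma, and 67 to 177 without 1 library. Those called between the sugars moved from 475 to 735 with the block and 247 with 2 groups alone. The cause was not tested. The counts of Anxa8, 3 to 107 per library, limit its precision.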
